A study of Mus musculus with 6 samples.

Results

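The DNA replication machinery was described here as 54 genes of 20312 rows in the deposited table, chosen by gene symbol, and all 54 symbols were found. The genes fell into 12 role lists that follow replication from origin to finished strand. RNA was sequenced from mouse intestine of strain 129 at 5 months of age. The 3 Apc min/+;Sirt7KO libraries (called knockout below, genotype APC min/+ ; Sirt7 -/-) were set against 3 Apc min/+ libraries (control). Both groups carry the Apc Min allele, a truncating allele of a negative regulator of Wnt signalling that gives intestinal adenomas, so no library comes from a mouse without it. The labels do not give the segment of intestine, the share of tumour, or whether each library came from a separate animal, so p-values measure the spread between these libraries, which may be technical.

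Replication starts where the origin recognition complex binds DNA and, with Cdc6 and Cdt1, loads the ring-shaped MCM helicase before S phase. The kinase made of Cdc7 and Dbf4 then lets Cdc45 and the GINS complex join the helicase, and DNA polymerases, the sliding clamp and the ligase copy and seal the strands. In the intestine this machinery is used in the crypts, where stem and progenitor cells divide, and is shut down as cells differentiate on the villus. Many of its genes are transcribed at the G1-S transition under E2F factors.

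Library depth was 24987313 to 27661396 recovered reads in knockout and 28123962 to 29603348 in control. Values are normalised reads, that is, read counts divided by 1 size factor per library, with no correction for gene length. Sirt7, the targeted deacylase gene, stood at 240.4, 224 and 219 in the knockout libraries, against 2157, 2118 and 2244 in the control libraries. The genotypes lay apart on principal component 1, which carried 83.7% of the variance. The genes that reached 10 normalised reads in 3 or more libraries were tested with limma on log2(value + 1), and a gene passed at a Benjamini-Hochberg adjusted p under 0.05. Of 16600 tested genes, 62.5% passed, 31.6% higher and 30.9% lower in knockout, so a passing gene is the common case in this comparison. Fold below is the ratio of the knockout mean to the control mean, and log2 fold changes, with their SE, are knockout over control on the log2(value + 1) scale.

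All 54 genes passed the filter on low values. Of these, 46 rose in knockout, 1 fell and 7 did not pass, where 31.6% of all tested genes rose. The same 46 genes were higher in every knockout library than in any control library, and all 7 that did not pass overlapped between the groups. Over all tested genes, the groups did not overlap for 66.5%, and the knockout libraries lay above the control libraries for 33.5%. The median log2 fold change was 0.65 over the 54 genes and 0.01 over all tested genes. A rise of over 2-fold on the log2 scale was seen for 15 of the 54, against 9.77% of all tested genes. By the authors' deposited table, 45 of the 54 genes were higher and 1 was lower at an adjusted p under 0.05, where 24.9% of its rows were higher. Together the 54 genes took 0.120% to 0.124% of recovered reads in the knockout libraries and 0.0666% to 0.0669% in the control libraries. Their summed normalised reads were 30384 to 30872 in knockout and 19910 to 20182 in control, a ratio of 1.53.

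With quantile normalization in place of size factors, the log2 fold changes of the 54 genes shifted by -0.20 to 0.016 (median -0.16). Calls were lost and signs turned only among the smaller changes. Under quantile normalization 43 of the 54 passed, where 10240 of all 16600 tested genes passed. Orc3, Orc4, Pold1, Rfc2, Rpa2 and E2f2, none of which passed under either scaling, turned sign at this setting. The rises of Mcm10 (0.17), Gins4 (0.27), Pola2 (0.19), Rfc3 (0.33), Rfc4 (0.36), Rpa3 (0.32) and Ccne2 (0.29) still passed but were over 1.5 times smaller on the log2 scale. By annotation, the spans of 15 of the 54 genes overlap a protein-coding gene, 13 of them one on the opposite strand. Overlap of exons was not examined. No strand setting is given, so reads from bases shared with a gene on the opposite strand could not be assigned by strand.

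**Figure D1:**
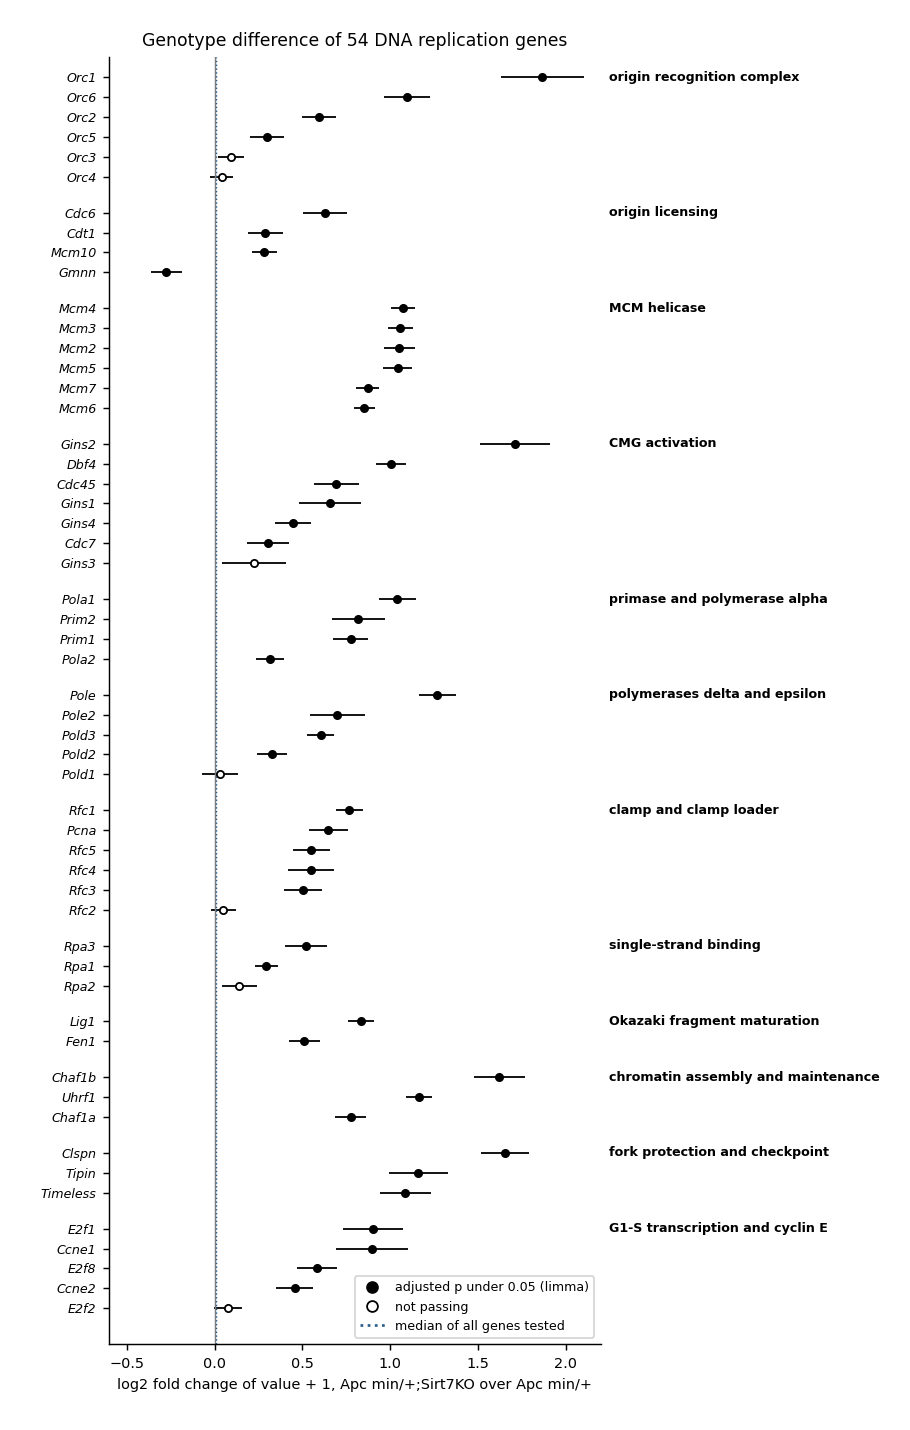
Log2 fold change of each gene (points) with its SE (bars), knockout over control on the log2(value + 1) scale, grouped by role; filled points passed at a limma adjusted p under 0.05, open points did not, and the dotted line is the median of all genes tested. Of 54 genes, 46 lie to the right of 0 and passed, and Gmnn is the 1 that passed to the left.

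The markers of several cell types differed between the same libraries, where 31.6% of all tested genes rose and 30.9% fell. All 10 proliferation markers rose (median log2 fold change 1.19), with a summed value of 15061 to 15817 in knockout and 7004 to 7746 in control. Among them were Mki67 (5344, 5024 and 4910.4 in knockout, 2811, 2739 and 2466 in control) and Top2a (4764, 4739 and 4577 in knockout, 2059.6, 2067 and 1885 in control). All 10 crypt stem and progenitor genes rose, with sums of 20115 to 21986 in knockout and 6827 to 6971 in control, and all 12 absorptive enterocyte genes fell, with sums of 698930 to 733210 in knockout and 1514200 to 1525700 in control. Lymphoid tissue also holds dividing cells. All 8 B lymphocyte genes fell (515 to 805 in knockout, 7040 to 7910 in control), and of 5 germinal centre B cell genes 4 fell and 1 did not pass (884 to 924 in knockout, 1246 to 1266 in control). All 7 tested T and NK lymphocyte genes of 8 fell (1037 to 1217 in knockout, 3519 to 3722 in control), and 4 of 5 tested macrophage genes fell and 1 did not pass (4704 to 4846 in knockout, 8208 to 8628 in control). All 9 pancreatic acinar genes rose (3417 to 4142 in knockout, 255 to 279 in control), as did all 8 gastric epithelium genes (21729 to 23297 in knockout, 23.2 to 33.0 in control), of which Lipf was at 0 in every control library. Of 6 smooth muscle genes 1 rose, 3 fell and 2 did not pass (33556 to 35848 in knockout, 42892 to 45226 in control). In bulk tissue, fewer cells of a type and less RNA per cell cannot be told apart, and the part of cell composition in the replication results was not tested.

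The origin recognition complex marks origins and is needed to load the helicase, and its 6 subunit genes were spread over the widest range of the 12 role lists, with log2 fold changes of 0.04 to 1.87. Orc1, the subunit that is made and degraded with the cell cycle, had 119, 124 and 93.5 normalised reads in the knockout libraries, against 26.8, 25.6 and 38.3 in the control libraries. It rose 3.71-fold (log2 fold change 1.87 ± 0.24, limma adjusted p = 3.49e-07), the highest rise of the 54 genes, and had as few as 24 recovered reads in 1 control library. It lies on chromosome 4 (108579423 to 108614833, plus strand, mm10, GENCODE), where a noncoding transcript, Gm12743, overlaps it on the opposite strand. Orc6 had 339, 391 and 397 in the knockout libraries, against 197, 190.2 and 142 in the control libraries, a 2.13-fold rise (limma adjusted p = 1.31e-07). Orc2 and Orc5, further subunits of the complex, rose 1.51-fold and 1.23-fold. Orc5 no longer passed without knockout library 1 (log2 fold change 0.24, limma adjusted p = 0.067) or control library 1 (0.22, limma adjusted p = 0.068), or under quantile normalization (0.14, limma adjusted p = 0.22).

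Orc3 and Orc4, core subunits of the same complex, overlapped between the groups. Orc3 had 728, 686 and 758 in the knockout libraries and 671, 707 and 656 in the control libraries (log2 fold change 0.09 ± 0.07, limma adjusted p = 0.271). Orc4 had 1108, 961 and 1067 in the knockout libraries and 1041, 987 and 1017 in the control libraries (log2 fold change 0.04 ± 0.07, limma adjusted p = 0.615), and its sign turned without knockout library 1 (-0.0030). Per kb of annotated exon, Orc4 stood at 140.2 normalised reads in knockout and 136 in control, and Orc1 at 32.2 in knockout and 8.70 in control. Here and below, annotated exon is the union of the exons of all annotated transcripts of a gene, which can be longer than its main transcript.

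Licensing is the step at which Cdc6 and Cdt1 load the helicase, and Gmnn encodes geminin, which binds Cdt1 and blocks loading again in the same cycle. Gmnn had 566, 534 and 509 normalised reads in the knockout libraries, against 754, 589 and 615 in the control libraries. The groups did not overlap, control library 1 was the highest, and Gmnn fell to 0.82 of the control mean (log2 fold change -0.27 ± 0.09, limma adjusted p = 0.0109). It was the 1 gene of 54 that fell, and lies on chromosome 13 (24751845 to 24761923, minus strand). Per kb of annotated exon it stood at 366 normalised reads in knockout and 445 in control, the highest level per kb of the 54 genes in control. It no longer passed without control library 1 (-0.17, limma adjusted p = 0.11) or without knockout library 3 (-0.24, limma adjusted p = 0.051).

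Cdt1 had 383, 364 and 377 in the knockout libraries and 290.1, 306 and 323 in the control libraries, a 1.22-fold rise (limma adjusted p = 0.0131) that did not pass under quantile normalization (0.11, limma adjusted p = 0.35). Cdc6, the loading ATPase, rose 1.55-fold, with 290.0, 288 and 244 in the knockout libraries and 164, 182 and 184 in the control libraries. Mcm10, which is not part of the ring, was listed here with the licensing genes. It had 811, 774 and 802 in the knockout libraries and 674, 647 and 639.5 in the control libraries. Its rise was 1.22-fold (limma adjusted p = 0.00111), smaller than that of any ring subunit. Within a library, the log2 ratio of Cdt1 to Gmnn was -0.56, -0.55 and -0.43 in knockout, against -1.37, -0.94 and -0.93 in control. The ratio was higher by 0.56 in knockout, with no overlap (exact permutation test, two-sided, p = 0.1, the smallest that 3 against 3 libraries allow; adjusted p = 0.17 over 10 pairs). Such ratios were compared for 10 partner pairs, and none could pass at 0.05, as the smallest exact p is 0.1. Of these, 6 did not overlap between the groups, close to the 62.5% of all 1431 pairs of the 54 genes that did not, so the ratios given below describe the libraries and set no pair apart.

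**Figure D2:**
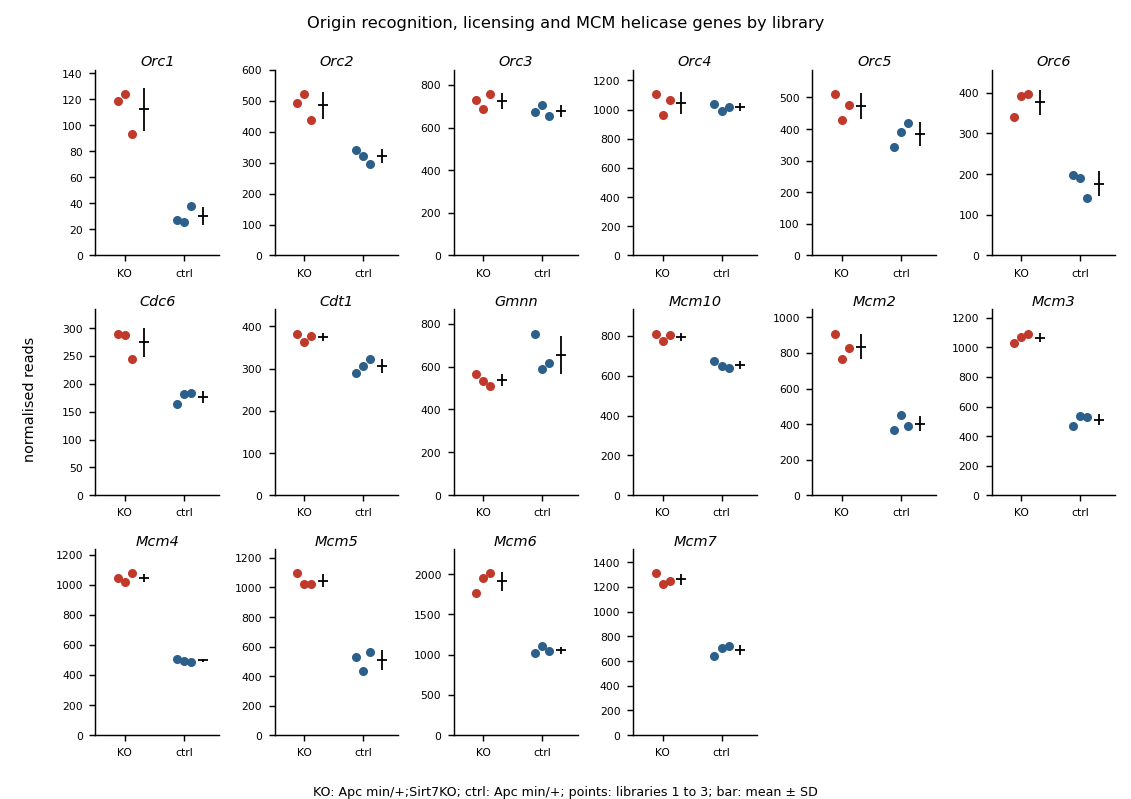
Normalised reads (y axis, from 0) of the origin recognition, licensing and MCM helicase genes in each library; points are libraries 1 to 3 of knockout (left) and control (right), and bars are the mean ± SD of 3 libraries. The 6 MCM helicase genes lie at 1.81 to 2.11 times their control means in knockout, while Orc3 and Orc4 overlap between the groups.

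The 6 subunits of the MCM helicase, the ring that unwinds the parental strands, rose together. Their log2 fold changes lay between 0.85 and 1.07, with SEs of 0.06 to 0.09, an SD of 0.10 across subunits, against 0.71 across the 6 origin recognition genes. Mcm4 had the highest fold, with 1043, 1016 and 1075 normalised reads in the knockout libraries, against 508, 495 and 485 in the control libraries. It rose 2.11-fold (log2 fold change 1.07 ± 0.07, limma adjusted p = 4.83e-12). Mcm6 had the lowest fold of the 6, with 1770.4, 1946 and 2007 in the knockout libraries and 1014, 1104 and 1043 in the control libraries. It rose 1.81-fold (log2 fold change 0.85 ± 0.06, limma adjusted p = 2.18e-11).

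The other 4 subunits moved within this range. Mcm2 had 909, 768 and 829.9 in the knockout libraries and 369, 451 and 389.8 in the control libraries, a 2.07-fold rise. Mcm3 had 1032, 1072 and 1093 in the knockout libraries and 471, 538 and 527 in the control libraries, a 2.08-fold rise. Mcm5 had 1095, 1024 and 1021 in the knockout libraries and 531, 435 and 565 in the control libraries, a 2.05-fold rise. Every knockout library was above every control library for each of these subunits. Mcm7 had 1309, 1225 and 1248 in the knockout libraries and 641, 703 and 722 in the control libraries, a 1.83-fold rise. Mcm7 hosts microRNA genes in its introns and overlaps Ap4m1 and Cops6 on the opposite strand. Per kb of annotated exon, the subunits ranged from 120.1 normalised reads (Mcm2) to 409 (Mcm6) in knockout and from 58.0 (Mcm2) to 226 (Mcm6) in control. The remaining 4 subunits lay at 262 to 291 in knockout and 128 to 156 in control. The exon union was 6956 bases for Mcm2 and 3589 to 4666 for the other subunits, so the low level of Mcm2 depends on that length.

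The start regions of these genes were searched for the E2F-type motif, spelled TTTGGCGC, TTTGCCGC, TTTCGCGC or TTTCCCGC on either strand, in the 300 bases from 250 before to 50 after the RefSeq start (GRCm38.p6). Of the 54 genes, 44 had an entry, and 16 of these (36.4%) held at least 1 match, against 3.78% of 10941 tested genes with an entry. The entries of 39 of the 44 start within 150 bases of the annotated gene start, and 14 of these 39 (35.9%) held a match. The other 5 start farther away (Cdc6, Mcm7, Fen1, Timeless and E2f1), and Cdc6 and Mcm7 are among the 16. Among matched genes the motif stood at 12 of 38 that rose and at 4 of 6 that did not pass. Of the 11 matched genes that rose over 2-fold on the log2 scale, 5 held it. A match is a run of letters and does not show that a factor binds there. The regions of the 2 subunit genes with the highest fold among those with an entry within 150 bases, and of the subunit gene with the lowest, are shown 5′ to 3′ on the strand of the gene, with motif letters in capitals. In the first block of Mcm6 a pair of matches overlaps and their letters run on.
Mcm3 (chr1:20820263-20820562, minus strand, 2 matches): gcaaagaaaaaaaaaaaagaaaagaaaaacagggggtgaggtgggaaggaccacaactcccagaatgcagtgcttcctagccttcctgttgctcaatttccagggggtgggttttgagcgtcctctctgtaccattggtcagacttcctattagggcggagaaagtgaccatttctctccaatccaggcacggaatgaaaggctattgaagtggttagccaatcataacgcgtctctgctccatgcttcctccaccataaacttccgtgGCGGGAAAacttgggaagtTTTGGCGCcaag
Mcm2 (chr6:88898731-88899030, minus strand, 0 matches): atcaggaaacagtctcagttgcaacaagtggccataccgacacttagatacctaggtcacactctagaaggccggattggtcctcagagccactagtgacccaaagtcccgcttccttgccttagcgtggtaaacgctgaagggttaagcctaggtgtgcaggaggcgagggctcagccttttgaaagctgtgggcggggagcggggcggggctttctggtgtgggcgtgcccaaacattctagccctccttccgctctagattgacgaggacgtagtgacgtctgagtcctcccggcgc
Mcm6 (chr1:128359656-128359955, minus strand, 3 matches): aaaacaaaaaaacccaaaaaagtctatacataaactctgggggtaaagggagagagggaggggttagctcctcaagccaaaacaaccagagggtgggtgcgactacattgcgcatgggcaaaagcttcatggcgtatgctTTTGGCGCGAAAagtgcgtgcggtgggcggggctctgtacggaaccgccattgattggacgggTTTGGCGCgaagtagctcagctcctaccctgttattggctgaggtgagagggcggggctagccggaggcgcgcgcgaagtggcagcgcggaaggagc

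These subunit genes hold 2, 0 and 3 matches and rose 2.08-fold, 2.07-fold and 1.81-fold. The region of Orc1, the gene with the highest fold of all 54, is shown as well; it was chosen after its values were seen and holds 1 match.
Orc1 (chr4:108579204-108579503, plus strand, 1 match): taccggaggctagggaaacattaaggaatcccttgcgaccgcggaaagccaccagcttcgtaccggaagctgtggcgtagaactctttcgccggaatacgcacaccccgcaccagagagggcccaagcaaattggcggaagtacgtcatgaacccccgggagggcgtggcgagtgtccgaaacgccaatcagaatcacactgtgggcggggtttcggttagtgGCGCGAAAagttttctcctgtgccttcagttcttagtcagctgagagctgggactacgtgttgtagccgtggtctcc

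Helicase activation joins Cdc45 and the 4 GINS subunits to the ring. Of the 7 genes in this list 6 rose, where 31.6% of all tested genes rose. Gins2 had 245, 274 and 258 normalised reads in the knockout libraries, against 107, 85.5 and 52.4 in the control libraries. It rose 3.17-fold (log2 fold change 1.71 ± 0.20, limma adjusted p = 2.52e-07), the second highest log2 value of the 54. Gins2 lies on chromosome 8 (120578633 to 120589304, minus strand), where its annotation overlaps Gse1 and Gm20388 on the opposite strand. Gins3, a subunit of the same tetramer, had 91.9, 122 and 97.3 in the knockout libraries and 95.0, 83.4 and 85.6 in the control libraries, and the groups overlapped (log2 fold change 0.23 ± 0.18, limma adjusted p = 0.289). Gins1, Gins4 and Cdc45 rose 1.60-fold, 1.36-fold and 1.61-fold.

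Dbf4, which activates the Cdc7 kinase, had 688, 725 and 689 in the knockout libraries and 369, 339 and 338 in the control libraries, a 2.01-fold rise (limma adjusted p = 3.23e-10). Cdc7 itself had 299, 290.4 and 242 in the knockout libraries and 226, 212 and 233 in the control libraries (log2 fold change 0.30 ± 0.12, limma adjusted p = 0.0297). Its call was lost without knockout library 1 (0.25, limma adjusted p = 0.12), knockout library 2 (0.27, limma adjusted p = 0.10), or control library 2 (0.27, limma adjusted p = 0.091), and under quantile normalization (0.11, limma adjusted p = 0.45). The log2 ratio of Cdc7 to Dbf4 was -1.20, -1.32 and -1.50 in knockout, against -0.70, -0.68 and -0.54 in control, without overlap (exact p = 0.1, adjusted p = 0.17 over 10 pairs).

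Polymerase alpha and primase lay the RNA-DNA primers, and all 4 genes rose, where 31.6% of all tested genes rose. Pola1, the catalytic subunit, had 429.5, 501 and 421 normalised reads in the knockout libraries and 221, 211 and 222 in the control libraries, a 2.07-fold rise (limma adjusted p = 9.84e-09). Pola2, its accessory subunit, had 763, 696 and 740.2 in the knockout libraries and 529.6, 618 and 619 in the control libraries, a 1.24-fold rise (limma adjusted p = 0.00138). The log2 ratio of Pola1 to Pola2 was higher by 0.72 in knockout, at -0.83, -0.47 and -0.81, against -1.26, -1.55 and -1.48 in control (exact p = 0.1, adjusted p = 0.17 over 10 pairs). The primase genes Prim1 and Prim2 rose 1.71-fold and 1.76-fold, and the ratio between them overlapped between the groups (difference -0.05, exact p = 0.8).

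Polymerase epsilon copies mainly the leading strand and polymerase delta the lagging strand. Pole, the catalytic subunit of epsilon, was among the tightest genes within each group, with 438, 437 and 446 normalised reads in the knockout libraries and 183, 182 and 181 in the control libraries. It rose 2.42-fold (log2 fold change 1.27 ± 0.10, limma adjusted p = 2.86e-10). Pole lies on chromosome 5 (110286306 to 110337474, plus strand) and overlaps an antisense gene. Its partner Pole2 rose 1.63-fold.

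Pold1, the catalytic subunit of delta, did not pass. It had 408, 371 and 362 in the knockout libraries and 332, 360.1 and 429 in the control libraries (log2 fold change 0.03 ± 0.10, limma adjusted p = 0.81). The groups overlapped, with control library 3 highest, and the sign turned without knockout library 1 (-0.02) or control library 1 (-0.05). The accessory subunit Pold3 had 1054, 1120.3 and 1049 in the knockout libraries and 744, 771 and 613 in the control libraries, a 1.51-fold rise (limma adjusted p = 5.37e-07), and Pold2 rose 1.26-fold. Pold2 did not pass under quantile normalization (0.18, limma adjusted p = 0.069). The log2 ratio of Pole to Pole2 was higher by 0.57 in knockout and that of Pold1 to Pold3 lower by 0.57 (difference -0.57), both without overlap (exact p = 0.1 each, adjusted p = 0.17 over 10 pairs).

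Pcna encodes the sliding clamp that tethers polymerases to DNA, and the Rfc genes encode the loader that places it. Pcna rose 1.57-fold, with 351, 377 and 318 in the knockout libraries and 243, 213 and 210.5 in the control libraries (limma adjusted p = 2.74e-05). Rfc1, the large loader subunit, had 906, 1081 and 953 in the knockout libraries and 555, 580.3 and 584 in the control libraries, the highest fold of this list (1.71, limma adjusted p = 5.93e-09). Rfc3, Rfc4 and Rfc5 rose 1.43-fold, 1.46-fold and 1.46-fold. Rfc2, another small subunit, had 747, 716 and 761 in the knockout libraries and 680.3, 739.5 and 728 in the control libraries, with overlap between the groups (log2 fold change 0.05 ± 0.07, limma adjusted p = 0.555).

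Replication protein A coats single-stranded DNA. Its large subunit gene Rpa1 had 1310.2, 1232 and 1145 in the knockout libraries and 977, 1054 and 969.9 in the control libraries, a 1.23-fold rise (limma adjusted p = 0.000384). Rpa3, the small subunit, had 315, 273 and 260.4 in the knockout libraries and 199, 192 and 197 in the control libraries, a 1.44-fold rise (limma adjusted p = 0.000574). Rpa2, the middle subunit, had 481, 412 and 563 in the knockout libraries and 432, 449 and 430.1 in the control libraries and did not pass (log2 fold change 0.14 ± 0.10, limma adjusted p = 0.23). The knockout libraries lay on both sides of the control libraries, and without knockout library 2 the gene passed (0.25, limma adjusted p = 0.038).

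Okazaki fragments on the lagging strand are trimmed by the flap nuclease Fen1 and sealed by the ligase Lig1, and both genes rose. Lig1 had 999.5, 949 and 986 in the knockout libraries and 494, 577 and 577 in the control libraries, a 1.78-fold rise (limma adjusted p = 1.59e-09). Fen1 had 675, 602 and 709 in the knockout libraries and 469.7, 502 and 421 in the control libraries, a 1.43-fold rise (limma adjusted p = 2.41e-05).

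The genes that restore chromatin behind the fork had some of the highest folds. Chaf1a and Chaf1b encode subunits of the factor that deposits histones on new DNA, and Uhrf1 encodes the protein that recruits the maintenance methyltransferase Dnmt1 to it. Chaf1b had 257, 311 and 280.4 normalised reads in the knockout libraries, against 97.0, 78.0 and 98.7 in the control libraries, a 3.10-fold rise (log2 fold change 1.62 ± 0.15, limma adjusted p = 1.57e-09). Chaf1a, its larger partner, had 611, 576 and 534 in the knockout libraries and 329, 335 and 339 in the control libraries, a 1.72-fold rise (limma adjusted p = 6.80e-08). The log2 ratio of Chaf1a to Chaf1b was 1.25, 0.89 and 0.93 in knockout, against 1.75, 2.09 and 1.77 in control, a difference of -0.85 that was the largest of the 10 pairs (exact p = 0.1, adjusted p = 0.17). Uhrf1 had 1134, 1090.1 and 1083 in the knockout libraries and 469, 475 and 532 in the control libraries, a 2.24-fold rise (limma adjusted p = 2.43e-12).

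Tipin and Timeless form the complex that steadies a stalled fork, and Clspn encodes claspin, the mediator of the checkpoint signal that such forks send. All 3 rose over 2-fold on the log2 scale, against 9.77% of all tested genes. Clspn had 360.2, 346 and 363 in the knockout libraries and 99.1, 136 and 106 in the control libraries, a 3.14-fold rise (log2 fold change 1.66 ± 0.14, limma adjusted p = 2.96e-10). Timeless had 268, 260.2 and 273 in the knockout libraries and 137, 98.3 and 145 in the control libraries, a 2.11-fold rise (limma adjusted p = 9.56e-07). Tipin rose 2.19-fold, and the ratio of Tipin to Timeless overlapped between the groups (difference 0.07, exact p = 0.7).

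**Figure D3:**
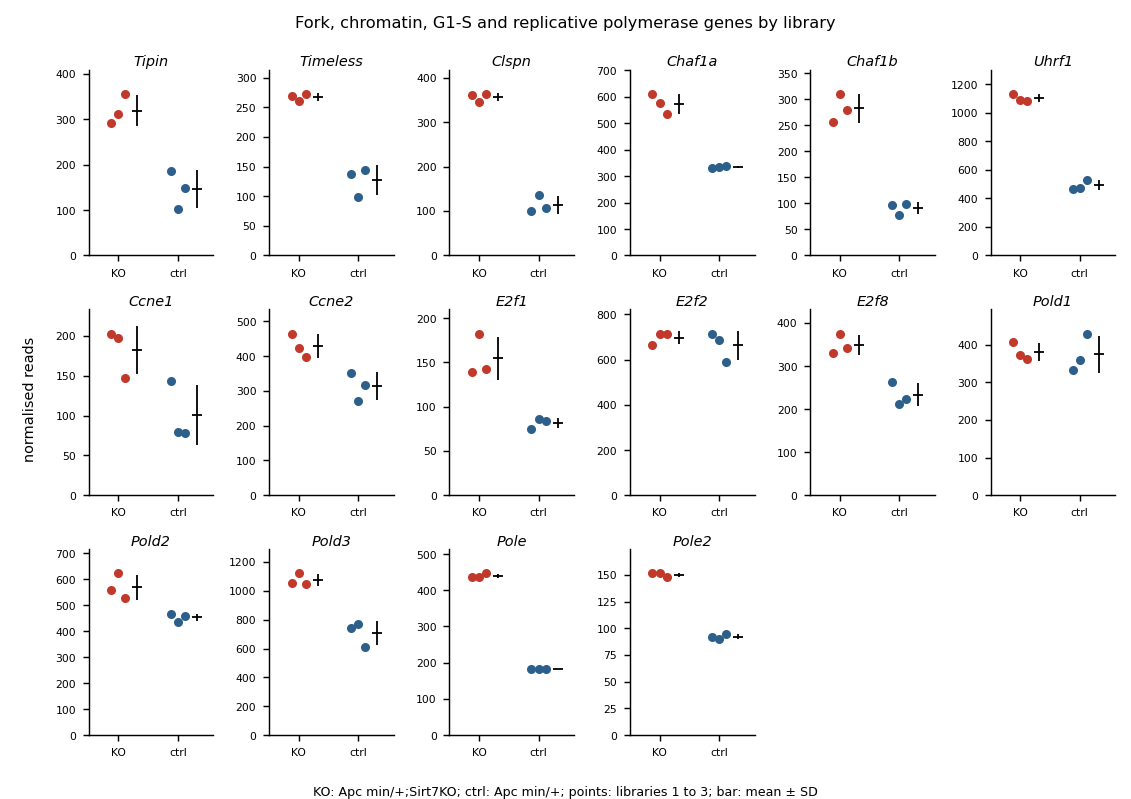
Normalised reads (y axis, from 0) of fork protection, chromatin assembly, G1-S and replicative polymerase genes in each library; points are libraries 1 to 3 of knockout (left) and control (right), and bars are the mean ± SD of 3 libraries. Clspn and Chaf1b stand at over 3 times their control means in knockout, while E2f2 and Pold1 overlap between the groups.

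Entry into S phase is driven by cyclin E, which activates Cdk2, and by E2F factors. E2f1, an activator of the family, had 139, 183 and 143 normalised reads in the knockout libraries and 75.4, 86.6 and 83.6 in the control libraries, a 1.89-fold rise (log2 fold change 0.90 ± 0.17, limma adjusted p = 7.37e-05). E2f2, a second activator, had 665, 714 and 713 in the knockout libraries and 714, 685 and 591 in the control libraries (log2 fold change 0.08 ± 0.08, limma adjusted p = 0.426). It overlapped between the groups, and its sign turned without control library 3 (-0.0054). E2f8, a repressor of the family, rose 1.50-fold.

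Both cyclin E genes rose. Ccne1 had 203, 197 and 147 in the knockout libraries and 144, 79.1 and 78.6 in the control libraries, where control library 1 reached 144 and the lowest knockout library 147. The rise was 1.81-fold (limma adjusted p = 0.000884). Ccne2 rose 1.37-fold, and the log2 ratio of Ccne1 to Ccne2 overlapped between the groups (difference 0.44, exact p = 0.2). The ratio of Gins1 to Gins4 overlapped as well (difference 0.21, exact p = 0.3).

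The start regions of genes in this list are shown for Ccne1 and E2f8, which rose, and for E2f2, which did not pass, with motif letters in capitals as above. The entry for E2f1 starts 466 bases inside the annotated gene and is not shown.
Ccne1 (chr7:38107441-38107740, minus strand, 0 matches): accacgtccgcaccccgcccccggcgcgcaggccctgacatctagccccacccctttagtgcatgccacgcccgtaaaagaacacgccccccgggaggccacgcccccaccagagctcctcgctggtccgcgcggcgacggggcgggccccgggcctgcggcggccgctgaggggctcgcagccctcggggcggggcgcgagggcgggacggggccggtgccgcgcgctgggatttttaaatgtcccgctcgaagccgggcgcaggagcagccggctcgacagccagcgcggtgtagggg
E2f8 (chr7:48881547-48881846, minus strand, 0 matches): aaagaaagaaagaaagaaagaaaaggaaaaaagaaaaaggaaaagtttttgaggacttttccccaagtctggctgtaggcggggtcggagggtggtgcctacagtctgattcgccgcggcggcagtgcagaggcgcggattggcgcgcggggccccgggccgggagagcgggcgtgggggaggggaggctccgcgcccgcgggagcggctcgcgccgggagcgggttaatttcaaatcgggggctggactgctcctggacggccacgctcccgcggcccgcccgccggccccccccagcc
E2f2 (chr4:136172024-136172323, plus strand, 1 match): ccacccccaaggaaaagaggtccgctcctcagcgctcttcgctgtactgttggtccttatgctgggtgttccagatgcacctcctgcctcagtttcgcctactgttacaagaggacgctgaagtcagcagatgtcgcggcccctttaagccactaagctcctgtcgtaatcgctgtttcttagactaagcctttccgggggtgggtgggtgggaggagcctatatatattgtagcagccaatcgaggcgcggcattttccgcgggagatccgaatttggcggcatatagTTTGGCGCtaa

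The motif letters stand in the region of the gene that did not pass and not in those of the genes that rose, and no match says only that these letters are not in this window.

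**Figure D4:**
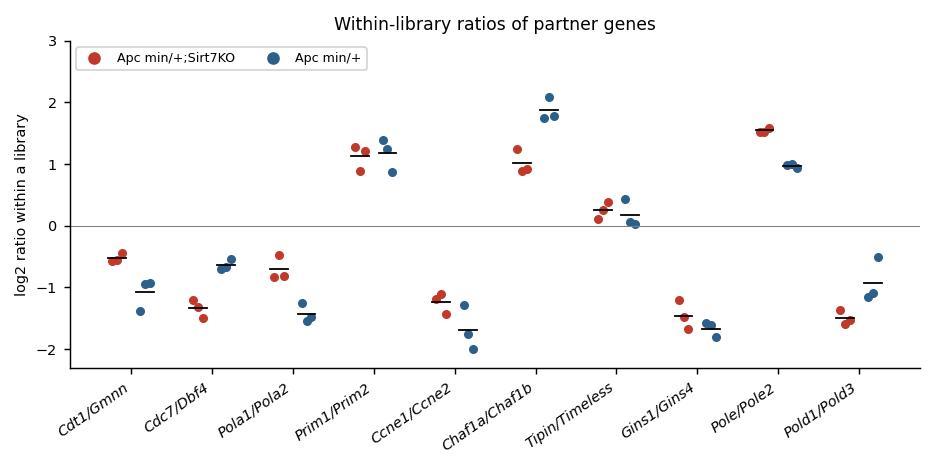
Log2 ratio of 2 genes within a library (y axis) for 10 partner pairs; points are libraries 1 to 3 of knockout (left of each pair) and control (right), and lines are group means. Cdt1/Gmnn, Pola1/Pola2 and Pole/Pole2 lie higher in knockout and Cdc7/Dbf4, Chaf1a/Chaf1b and Pold1/Pold3 lower, each without overlap, while the other 4 pairs overlap.

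Genes of the pathway outside the 54 moved in both directions. Of 49 other replication genes, 34 rose, 5 fell and 10 did not pass, with a median log2 fold change of 0.56, again where 31.6% of all tested genes rose. The 3 rises with the smallest p were Ccna2, the S phase cyclin (1378 ± 36.4 in knockout and 720.2 ± 18.4 in control; mean ± SD, n = 3 each, here and below), Dnmt1, the maintenance DNA methyltransferase (1472 ± 58.9 in knockout and 773 ± 38.9 in control), and Rif1, which sets replication timing (1195 ± 28.5 in knockout and 618 ± 30.9 in control). The 3 falls with the smallest p were Rb1, the retinoblastoma repressor of E2F factors (2385 ± 83.7 in knockout and 3151 ± 123 in control), Donson, a protein of the replication fork (283 ± 20.9 in knockout and 414 ± 26.9 in control), and Pole3, a histone-fold subunit of polymerase epsilon (1164 ± 49.9 in knockout and 1433 ± 18.4 in control). Pold4, the small subunit of polymerase delta, and Rbl2, a relative of Rb1, fell as well, with log2 fold changes of -0.63 and -0.18. E2f4, Asf1a, Pole4, Kat7, Lin54, Rbl1, Mcmbp, Slbp, Mcm9 and E2f3 did not pass, with log2 fold changes between -0.09 and 0.23.

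Of 9 genes for the supply of nucleotides, 6 rose, 2 fell and 1 did not pass, where 31.6% of all tested genes rose and 30.9% fell. The median log2 fold change of the 9 genes was 0.53. Their summed normalised reads overlapped between the groups, at 9911 to 10594 in knockout and 10398 to 10962 in control (ratio 0.967). The largest part of each sum was Samhd1, which breaks down deoxynucleotides, so the sums do not give the level of the genes that make them. Rrm1, the large subunit of ribonucleotide reductase, stood at 1593 ± 5.59 in knockout and 734 ± 64.8 in control. Tyms, which makes thymidylate, stood at 577 ± 33.4 in knockout and 286 ± 32.9 in control, and Rrm2, the small reductase subunit, at 817 ± 18.1 in knockout and 545 ± 76.1 in control. Samhd1 fell and stood at 4501 ± 261 in knockout and 6309 ± 236 in control. Dck, which salvages deoxycytidine, did not pass (log2 fold change 0.12, limma adjusted p = 0.24).

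**Figure D5:**
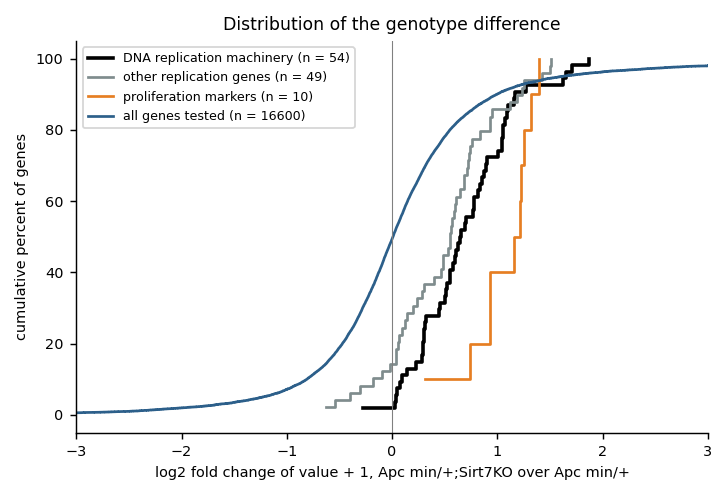
Cumulative percent of genes (y axis) by log2 fold change, knockout over control on the log2(value + 1) scale (x axis, drawn from -3 to 3), for the 54 DNA replication genes, 49 other replication genes, 10 proliferation markers and all 16600 genes tested. The median is 0.65 for the 54 genes, 0.56 for the other replication genes, 1.19 for the proliferation markers and 0.01 for all genes.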

How the data were processed

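RNA-seq of 6 intestine libraries was analysed, 3 per genotype, grouped by title. The submitters' processing notes name FastQC, TopHat2 2.1.1, HTSeq 0.6.1p1, DESeq2 and build mm10, with no role or order; the strand setting is not given in the sources used here. The authors' deposited values are a signal, read counts divided by 1 size factor per library; all were whole multiples of 1 read within 0.01, so reads were recovered. The authors' deposited table also holds a log2 fold change, its score (a Wald statistic) and p-values, used only where named. Genes at 10 or more in at least 3 libraries were fitted with limma 3.58.1 (R 4.3.3; trended, robust) on log2(value + 1), with Benjamini-Hochberg adjustment over 16600 genes. This scale understates the change of low genes. Partner ratios were compared with the exact permutation test, two-sided. Alternatives were a replicate block, each library left out, TMM and quantile normalization, other filters and pseudocounts, limma without robust estimation, and edgeR 4.0.16 and DESeq2 1.42.0 on recovered reads. All 54 genes are named, with values per library for the extremes of each role list, the genes that fell or did not pass, and the 10 with the highest mean. Of other pathway genes, the 3 with the smallest p in each direction and those not passing are named, except for an item that is not reported here. Gene positions and exon lengths are from the GENCODE annotation of mm10; start regions are from RefSeq (GRCm38.p6). Genes and lists were chosen with earlier results of these data known.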

Additional observations from a re-analysis of the deposited data

How the results depend on the processing

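Of the 47 replication genes that passed, 42 kept their direction and call under every alternative run, and 0 changed sign. With the replicate block 47 passed, as without it, and 10402 genes of the whole table passed against 10381. Deviations of same-numbered libraries correlated at 0.0003, 0.036 and -0.0063, so no shared effect of the number was seen. Whether the libraries were paired in some way cannot be told from this, and the labels do not say. With recovered reads, edgeR and DESeq2 each called 47, where they called 10374 and 9906 genes of the whole table. Under quantile normalization 43 passed, where 10240 genes of the whole table passed, and the median log2 fold change of the 54 genes was 0.49. The 54 genes shifted by a median of -0.16 and all genes by -0.06. Orc5, Cdt1, Cdc7 and Pold2 then lost their call, and genes not called turned sign: Orc3 -0.025, Orc4 -0.0082, Pold1 -0.14, Rfc2 -0.059, Rpa2 -0.0088 and E2f2 -0.047; the cause was not tested. Leaving out 1 library at a time, the median ranged from 0.63 to 0.71 and 45 to 47 of the 54 genes passed. At these settings 9672 to 9869 genes of the whole table passed, against 10381 with every library. The number of the 54 that fell ranged from 0 to 1. Of the 10 partner ratios, 6 to 8 did not overlap. Groups separate more easily with fewer libraries, and all pairs of the 54 genes were not counted at these settings. The range of the partner ratios therefore does not measure their stability. With 1 library left out, log2 fold changes ranged from -0.0030 to 0.10 for Orc4, -0.049 to 0.13 for Pold1 and -0.0054 to 0.13 for E2f2. Gmnn lost its call without control library 1 or without knockout library 3, as given above. Its log2 fold change was then -0.17 and -0.24, against -0.27 with every library. Low read counts limit precision: Orc1, with 24 reads in 1 library, had the largest SE of the 54 genes (0.24).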
